A study of Rattus norvegicus with 200 samples.

Results

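Genes of fatty acid synthesis and desaturation were followed in rat libraries labelled microglia, the macrophages that reside in brain tissue. The set was chosen by gene symbol and named 10 genes: Acly, Acaca, Fasn, Elovl6, Elovl5, Scd, Scd2, Fads1, Fads2 and Srebf1. The count table held 9 of them among 20361 genes, and all 9 were among the 14393 that passed the filter on low counts. Elovl6, an elongase of long-chain fatty acids, was not analysed here. RNA was measured in bulk in 200 libraries from adult male wild-type rats of the outbred Wistar strain, at Zeitgeber times (ZT, hours after lights on) 2, 6, 10, 14, 18 and 22. The diet was either chow or high in fat (HFD), and within each diet the food was present at all times (chow ad libitum and HFD ad libitum, 34 libraries each), in the dark phase only (chow dark-feeding and HFD dark-feeding, 33 each) or in the light phase only (chow light-feeding and HFD light-feeding, 33 each). A group held 5 to 7 libraries at each time. The labels do not tie libraries to individual animals, so the p-values rest on library-to-library spread, part of which may be technical.

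Fatty acids are built in the cytosol from acetyl-CoA. Acly (ATP citrate lyase) makes acetyl-CoA from citrate, Acaca (acetyl-CoA carboxylase) turns it into malonyl-CoA, and Fasn (fatty acid synthase) joins these units into palmitate. Elongases such as Elovl5 lengthen the chain, the stearoyl-CoA desaturases Scd and Scd2 place a double bond in saturated chains, and Fads1 and Fads2 (delta-5 and delta-6 desaturases) make long polyunsaturated fatty acids from dietary precursors. Srebf1 encodes the transcription factor SREBP-1, which switches on most of these genes in liver in response to insulin and feeding, usually together with the factors NF-Y and Sp1 at promoters. In the brain, oligodendrocytes make large amounts of lipid for myelin, and astrocytes are a known site of polyunsaturated fatty acid synthesis.

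RefSeq gave 8 promoter windows for 7 of the genes (build GRCr8), of which the 250 bases before the start site were read 5′ to 3′ on the gene's strand. Shown here are the windows of Scd, Scd2 and Elovl5, which were higher on HFD under every schedule, of Fads1 and Fads2, which were lower on HFD when feeding was timed, and of Srebf1 for the regulator itself. Capitals mark the motifs searched on both strands: the NF-Y box CCAAT, the GC box GGGCGG of Sp1-type factors, the E-box CACGTG and the sterol regulatory element TCACNCCAC.
Scd, chr1:253231732-253231981, minus strand: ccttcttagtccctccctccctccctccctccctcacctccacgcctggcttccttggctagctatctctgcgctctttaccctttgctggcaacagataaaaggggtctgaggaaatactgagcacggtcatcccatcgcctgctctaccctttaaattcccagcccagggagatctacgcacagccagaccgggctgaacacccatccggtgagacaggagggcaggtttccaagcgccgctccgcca
Scd2, chr1:253118127-253118376, plus strand: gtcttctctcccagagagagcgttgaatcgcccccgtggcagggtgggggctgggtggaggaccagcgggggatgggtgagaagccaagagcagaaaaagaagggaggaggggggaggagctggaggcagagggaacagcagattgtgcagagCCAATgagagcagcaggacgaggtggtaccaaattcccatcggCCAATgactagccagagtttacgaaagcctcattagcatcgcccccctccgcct
Elovl5, chr8:87670914-87671163, plus strand: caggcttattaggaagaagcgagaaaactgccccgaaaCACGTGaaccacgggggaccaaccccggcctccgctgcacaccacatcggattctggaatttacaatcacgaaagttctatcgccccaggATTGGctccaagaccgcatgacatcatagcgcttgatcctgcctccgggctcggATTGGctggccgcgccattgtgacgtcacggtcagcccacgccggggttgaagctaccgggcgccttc
Fads1, chr1:216252442-216252691, plus strand: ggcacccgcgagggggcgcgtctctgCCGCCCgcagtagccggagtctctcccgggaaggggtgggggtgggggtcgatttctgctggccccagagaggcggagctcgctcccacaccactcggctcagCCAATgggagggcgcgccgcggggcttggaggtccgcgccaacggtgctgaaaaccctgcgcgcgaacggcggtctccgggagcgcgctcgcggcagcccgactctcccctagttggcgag
Fads2, chr1:216172034-216172283, minus strand: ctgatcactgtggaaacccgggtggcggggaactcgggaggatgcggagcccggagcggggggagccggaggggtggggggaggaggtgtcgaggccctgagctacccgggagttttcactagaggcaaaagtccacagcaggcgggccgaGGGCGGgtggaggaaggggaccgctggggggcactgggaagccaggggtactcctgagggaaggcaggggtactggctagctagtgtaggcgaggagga
Srebf1, chr10:45519011-45519260, minus strand: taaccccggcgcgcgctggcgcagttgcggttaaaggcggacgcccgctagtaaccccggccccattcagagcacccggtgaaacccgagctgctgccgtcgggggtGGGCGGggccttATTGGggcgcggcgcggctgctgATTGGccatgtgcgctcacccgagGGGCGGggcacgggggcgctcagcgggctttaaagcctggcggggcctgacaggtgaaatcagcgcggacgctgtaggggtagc

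The NF-Y box was found in 6 of the 8 windows and in 34.0% of all 33469 windows. In Scd2 it lay at -97 and -54, in Elovl5 at -122 and -68, in Fads1 at -121, and in this Srebf1 window at -131 and -108, counted from the start site. The Fads2 window held no CCAAT and a GC box at -99, and the Scd window held none of these motifs. The GC box was found in 5 of the 8 windows and in 30.5% of all, the E-box in the Elovl5 window only (at -212) and in 5.59% of all, and the sterol regulatory element in 0 of the 8 and in 0.974% of all. A match is a run of letters and no measured binding.

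Library totals lay between 3.78 and 11.6 M counts (median 7.55 M). Levels are CPM, read counts relative to library sizes that were scaled by trimmed means, and levels of different genes are compared per length as FPKM (fragments scaled by gene length and depth). Of the marker lists, oligodendrocyte genes had a median of 248 FPKM (12 genes), neuron genes 59 (15), microglia genes 46.5 (20) and astrocyte genes 17.1 (14), and 0 of the markers were at 0 in every library. Per length, the median oligodendrocyte and neuron marker thus stood above the median marker of the labelled cell type. In bulk RNA, fewer cells of a type and less RNA per cell cannot be told apart. Of the numbered series of library titles 0 held both diets. The effect of diet and that of any processing by title series cannot be told apart. A total of 3 libraries stood apart on the principal components, 2 of chow dark-feeding at ZT14 and 1 of HFD ad libitum at ZT6. Leaving these 3 out moved no count of calls among the 9 genes by over 1.5 times but ended 2 calls, the differences in rhythm between light and dark feeding on chow of Acly (adjusted p = 0.0648) and Fads2 (0.0973). Over all genes the share of higher calls depended on the scale: on FPKM it was 35.1% (2330 higher, 4310 lower) for diet under dark feeding and 37.9% (2739, 4480) under light feeding, against 49.3% (3268, 3359) and 48.6% (3535, 3735) on counts. For light against ad libitum feeding on chow it was 68.5% (37, 17) on FPKM against 31.5% (76, 165), and for the diet by light-feeding interaction 49.6% (582, 591) against 60% (827, 552). For light against dark feeding on HFD it was 85.7% (6, 1) on FPKM and 100% (5, 0) with no filter on low counts against 58.3% (7, 5), and for the diet by dark-feeding interaction 39.1% (43, 67) with no filter against 25.8% (32, 92).

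Scd2 was by far the most abundant of the genes per length, with a median of 462.6 FPKM (300.6 to 786.1 over 200 libraries). Elovl5 followed at 68.2 (44.4 to 104), Srebf1 at 46.2 (25.0 to 82.8), Fasn at 34.1 (27.1 to 43.5), Acly at 24.3 (18.0 to 36.5) and Fads1 at 17.4 (11.4 to 40.1). Acaca had 10.52 FPKM (7.47 to 13.1), Fads2 6.99 (3.46 to 21.5) and Scd 3.63 (2.2 to 7.2). Scd2, the main form in brain, and its paralogue Scd stood at opposite ends of the list. Each neighbouring pair in this order kept it in at least 172 of 200 libraries, the least firm being Acaca above Fads2, and Scd2 stood above Elovl5 in 200 of 200. Counts of Scd and Scd2 were not whole in 88.5% and 88% of libraries, so reads may have been divided between the paralogues, and their levels are uncertain to that extent. For the other 7 genes every count was whole.

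**Figure D1:**
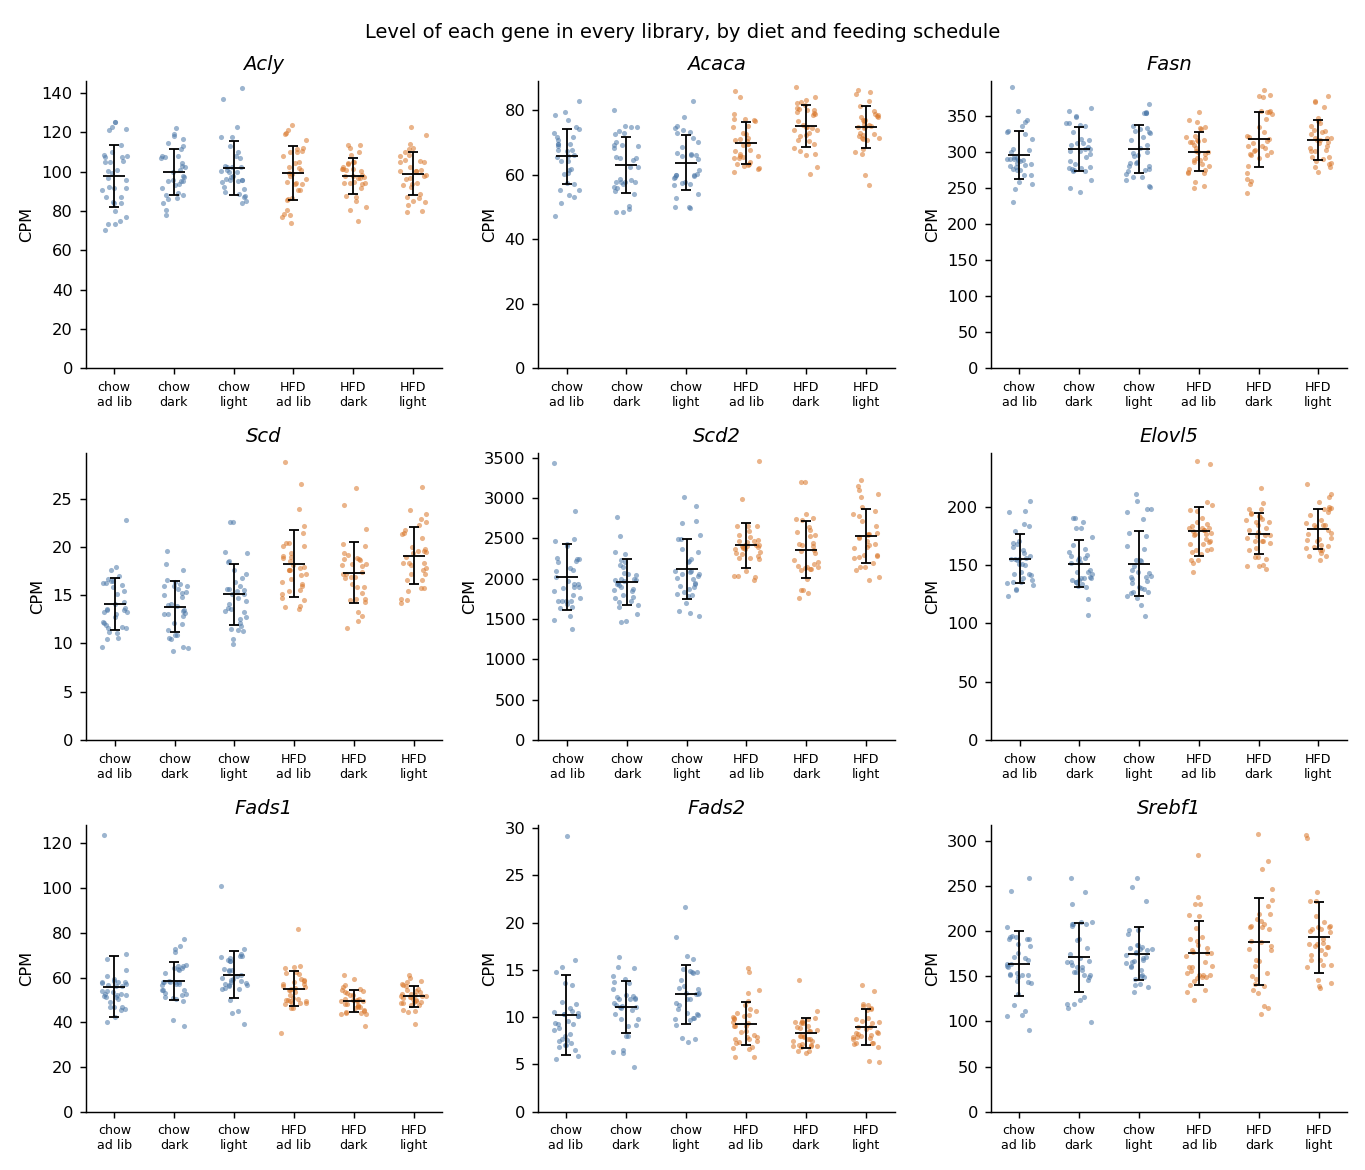
Level of each of the 9 genes in CPM (vertical axis, from 0) in every library (points), by group; the bar and whiskers are the mean and SD of 33 or 34 libraries. Scd, Scd2 and Elovl5 sit higher in the HFD groups (orange) than in the chow groups (blue), and Fads1 and Fads2 sit lower in the HFD groups with timed feeding.

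HFD was compared with chow under each schedule to ask what the diet did to the pathway. The desaturases of saturated chains and the elongase rose on HFD under all 3 schedules, the largest of these being 1.29-fold (Scd, ad libitum). Acaca rose and the polyunsaturated desaturases Fads1 and Fads2 fell under dark and under light feeding. By edgeR, Acly, Fasn and Srebf1, the supply, the synthase and the regulator, passed under none of the schedules. By edgeR's quasi-likelihood test with Benjamini-Hochberg adjustment over all 14393 genes, 3 of 9 genes rose under ad libitum feeding and 0 fell, where 9.48% of all genes rose and 10.8% fell. Under dark feeding 4 rose and 2 fell (22.7% and 23.3% of all), and under light feeding 4 rose and 2 fell (24.6% and 26% of all). The 9 genes had a median log2 fold change (log2FC) of 0.09, 0.125 and 0.13 under the 3 schedules, against -0.02, -0.01 and -0.01 for all genes.

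Scd ran from 9.67 to 22.8 CPM (median 13.5) in chow ad libitum and from 13.55 to 28.8 (median 17.8) in HFD ad libitum. The groups overlapped, yet 34 of 34 HFD libraries lay above the chow median, and the HFD mean was higher at 6 of 6 times (log2FC 0.37, SE 0.06, adjusted p = 8.37e-05). Under dark feeding Scd rose from a median of 13.9 (9.18 to 19.6) to 17.2 CPM (11.6 to 26.1; log2FC 0.33, SE 0.06, adjusted p = 6.53e-06). Under light feeding it rose from 15.1 (9.99 to 22.6) to 18.9 CPM (14.2 to 26.2; log2FC 0.35, SE 0.06, adjusted p = 6.1e-06). Neither interaction of diet with schedule passed for Scd, at -0.04 with dark feeding (95% interval -0.21 to 0.14) and -0.02 with light feeding (-0.20 to 0.15).

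Scd2 had medians of 1932, 1945 and 2054 CPM in the chow groups in the order ad libitum, dark and light feeding. In the HFD groups the medians were 2396, 2344 and 2507 CPM. Its log2FC was 0.26 (SE 0.05, adjusted p = 0.00057), 0.27 (SE 0.05, adjusted p = 3.36e-06) and 0.26 (SE 0.05, adjusted p = 2.07e-05) in the same order, and the HFD mean was higher at 6 of 6 times in each. The lowest chow library had 1378 CPM and the highest 3431, and HFD libraries ran from 1762 to 3459, so the ranges overlapped widely.

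Elovl5, which lengthens polyunsaturated chains, ran from 123 to 205 CPM in chow ad libitum (median 155) and from 144 to 239.6 in HFD ad libitum (median 177). Its log2FC was 0.19 (SE 0.04, adjusted p = 0.00103) there, 0.22 (SE 0.04, adjusted p = 4.39e-06) under dark feeding and 0.26 (SE 0.05, adjusted p = 9.32e-06) under light feeding. Under dark and light feeding 33 of 33 HFD libraries lay above the chow median.

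Acaca, the carboxylase that commits carbon to synthesis, had a median of 62.3 CPM (48.6 to 80.2) in chow dark-feeding and 75.0 (60.3 to 87.1) in HFD dark-feeding, where 32 of 33 HFD libraries lay above the chow median (log2FC 0.27, SE 0.04, adjusted p = 7.33e-08). Under light feeding it rose from 61.4 (49.6 to 82.8) to 75.1 CPM (56.9 to 86.3; log2FC 0.24, SE 0.04, adjusted p = 1.31e-07). Under ad libitum feeding its log2FC was 0.09 (95% interval 0.01 to 0.17, adjusted p = 0.0852).

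Fads2, which begins polyunsaturated synthesis, had a median of 11.3 CPM (4.75 to 16.3) in chow dark-feeding and 7.99 (6.17 to 13.95) in HFD dark-feeding. Just 1 of 33 HFD libraries lay above the chow median, and Fads2 was lower on HFD at 6 of 6 times (log2FC -0.41, SE 0.08, adjusted p = 1.61e-05). Under light feeding it fell from 12.5 (7.41 to 21.7) to 8.44 CPM (5.22 to 13.4; log2FC -0.47, SE 0.08, adjusted p = 6.95e-07). Fads1, the next desaturase of that branch, fell from 57.9 (38.2 to 77.5) to 49.4 CPM (38.25 to 61.4) under dark feeding (log2FC -0.24, SE 0.04, adjusted p = 7.21e-06) and from 59.7 (39.4 to 101) to 51.9 CPM (39.3 to 61.1) under light feeding (log2FC -0.24, SE 0.04, adjusted p = 4.86e-06). Under ad libitum feeding their log2FC were -0.02 for Fads1 (95% interval -0.13 to 0.09) and -0.14 for Fads2 (-0.33 to 0.05), and neither passed.

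Fasn differed little between diets, its medians lying between 289.9 and 316.9 CPM in the 6 groups and its log2FC between 0.02 and 0.07. Acly had medians of 97.7 to 100.1 CPM and log2FC between -0.04 and 0.01. Srebf1 had the wider spread, with 90.7 to 258 CPM in chow ad libitum and 108 to 307 CPM in HFD dark-feeding, and log2FC of 0.10, 0.12 and 0.13 (adjusted p = 0.279, 0.0722 and 0.0522). The adjusted p of Fasn under dark feeding was 0.062 and that of Acly under the 3 schedules was at least 0.353. Srebf1 passed in 5 of 20 alternatives under light feeding, among them DESeq2 (adjusted p = 0.0406), the lowest adjusted p being 0.00236, and in 2 under dark feeding (lowest 0.0184). Fasn passed in 4 of 20 under dark feeding (lowest 0.027) and in 3 under light feeding (0.0251).

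**Figure D2:**
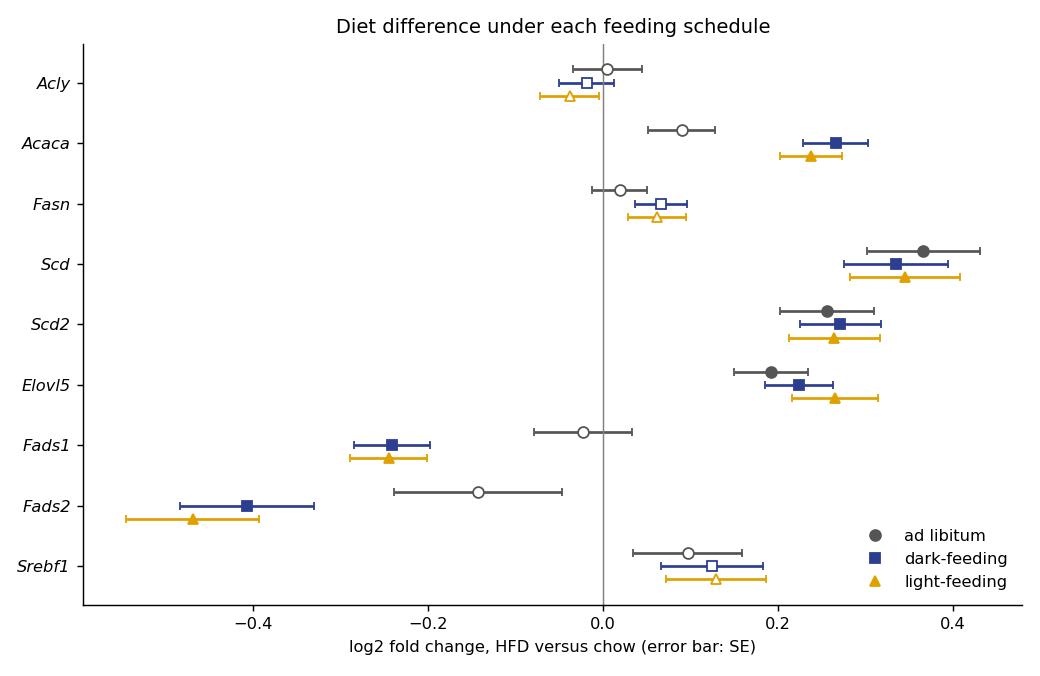
Log2 fold change of HFD against chow (horizontal axis) with its SE for each gene under the 3 schedules; filled symbols passed an adjusted p of 0.05. Scd, Scd2 and Elovl5 lie at 0.19 to 0.37 under every schedule, and Fads1 and Fads2 lie at -0.24 to -0.47 with timed feeding and at -0.02 and -0.14 ad libitum.

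Marker genes of other cell types moved with these differences. Under dark feeding 8 of 12 oligodendrocyte markers rose on HFD and 0 fell (median log2FC 0.22), while 13 of 14 astrocyte markers fell and 1 rose (-0.52), and 13 of 20 microglia markers fell (-0.30). Under light feeding the counts were 8 of 12 higher (0.22) and 13 of 14 lower with 1 higher (-0.63), with 12 of 20 microglia markers lower (-0.25). Under ad libitum feeding 3 of 12 oligodendrocyte markers rose (0.14), 0 of 14 astrocyte markers passed by edgeR (-0.10) and 8 of 20 microglia markers fell (-0.22). Summed oligodendrocyte markers ran from 10400 to 21800 CPM in chow dark-feeding and from 11000 to 22700 in HFD dark-feeding, and from 10600 to 21600 in chow and 12600 to 22800 in HFD light-feeding. Summed astrocyte markers ran from 1120 to 2280 CPM in chow and 1180 to 1700 in HFD dark-feeding, and from 1300 to 2820 in chow and 1150 to 1880 in HFD light-feeding. Other lists differed too between chow and HFD dark-feeding. Median sums fell for meningeal fibroblast (108 to 57.3 CPM), endothelial (86.5 to 60.6), erythrocyte (497 to 227) and mural markers (96.2 to 81.1). They rose for neuron (3680 to 3770) and oligodendrocyte precursor markers (488 to 589). When the model also held scores for 7 marker lists of non-microglial cells, Scd (log2FC 0.27, adjusted p = 0.0123), Scd2 (0.15, adjusted p = 0.00368) and Elovl5 (0.13, adjusted p = 0.0144) still rose under ad libitum feeding. Under light feeding Scd (0.24, adjusted p = 0.0385) and Scd2 (0.15, adjusted p = 0.0136) still rose. The other light-feeding calls were lost in that model. These were Acaca (0.06, adjusted p = 0.491), Elovl5 (0.11, adjusted p = 0.0961), Fads1 (0.04, adjusted p = 0.642) and Fads2 (-0.05, adjusted p = 0.774). Under dark feeding 0 of 9 passed by edgeR in that model, where Fads2 stood at 0.03 (adjusted p = 0.948) and Acaca at 0.04 (adjusted p = 0.764).

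Limits of the diet result were these. When libraries of one group and time with neighbouring titles were summed to 1 sample each, the 3 calls under ad libitum feeding were lost (adjusted p = 0.0764 for Scd and Scd2 and 0.0774 for Elovl5), with log2FC of 0.44, 0.30 and 0.25 on fewer samples. They were also lost in the light phase alone (0.211, 0.27 and 0.309), where the log2FC were 0.35, 0.26 and 0.18 and 0.00695% of all genes rose and 0.00695% fell. The same summing ended the Fads2 call under dark feeding (adjusted p = 0.0571). Under light feeding the dark-phase libraries alone left 1 call, Fads2 (log2FC -0.37, adjusted p = 0.0179; 2.99% of all genes rose and 3.44% fell), and the log2FC of Scd2 was 0.13 there against 0.405 in the light-phase libraries.

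Other genes of lipid synthesis, 55 of which were tested, went both ways with diet. Under ad libitum feeding 6 rose and 6 fell (9.48% and 10.8% of all genes), under dark feeding 17 rose and 13 fell (22.7% and 23.3%), and under light feeding 18 rose and 14 fell (24.6% and 26%). The share called was 21.8%, 54.5% and 58.2% of the 55. Of 11 genes of the elongation cycle 3, 6 and 5 rose and 0, 1 and 2 fell under the 3 schedules, where 9.48%, 22.7% and 24.6% of all genes rose, led by Hacd1, a dehydratase of the cycle, under ad libitum feeding (log2FC 0.36, SE 0.07, adjusted p = 0.000172) and Hacd2 (0.19, SE 0.04). Of 6 genes listed for SREBP processing, 1, 4 and 4 rose and 0 fell beside the same shares of all genes. Among those that rose was Mbtps2, a protease that releases the factor (0.17, SE 0.05, ad libitum). The list includes Srebf2, which encodes an SREBP itself, and Insig1, which holds SREBP back. Of 6 genes listed for acetyl-CoA and NADPH supply 1, 3 and 4 fell and 0 rose, where 10.8%, 23.3% and 26% of all genes fell. Pgd, an NADPH-forming dehydrogenase, stood at -0.13 and -0.20 under ad libitum and dark feeding. The list and its counts include Acacb, a carboxylase that supplies neither. Acacb, the mitochondrial carboxylase that restrains fat burning, fell by 0.72 (SE 0.12) under dark feeding and by 0.94 (SE 0.12) under light feeding on the log2 scale. Mlxipl, which encodes the glucose-responsive factor ChREBP, fell by 0.38 and 0.42, and Acsl3, an acyl-CoA synthetase, rose by 0.17 and 0.22 (SE 0.03 each). Sp1, a partner of SREBP at promoters, rose by 0.40 (SE 0.04) under light feeding.

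Feeding schedules were compared within each diet. On chow, 0 of 9 genes passed by edgeR in any of the 3 comparisons. Dark against ad libitum feeding gave 0% of all genes higher and 0% lower, with 0 of the 9 under an unadjusted p of 0.05 and 0 called by DESeq2. Light against ad libitum feeding gave 0.528% higher and 1.15% lower, with 2 of the 9 under an unadjusted p of 0.05 and 0 by DESeq2, and Fads2 had the largest log2FC (0.26, 95% interval 0.07 to 0.46, adjusted p = 0.129). Light against dark feeding gave 0% higher and 0% lower, with 0 of the 9 under an unadjusted p of 0.05 and 0 by DESeq2.

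The 2 phases on chow were also compared apart. In the light-phase libraries alone, where 7.02% of all genes were higher and 7.4% lower under light feeding, it had lower Fasn (log2FC -0.18, adjusted p = 0.00237), Acaca (-0.21, adjusted p = 0.00495) and Srebf1 (-0.24, adjusted p = 0.0128) against dark feeding, and Fads2 was higher (0.39, adjusted p = 0.0104). In the dark-phase libraries alone, where 5.86% of all genes were higher and 3.96% lower, Fasn (0.18, adjusted p = 0.0106), Acaca (0.23, adjusted p = 0.00319), Srebf1 (0.34, adjusted p = 0.00993), Scd (0.37, adjusted p = 0.0142) and Scd2 (0.31, adjusted p = 0.00242) were higher under light feeding. Fasn, Acaca and Srebf1 thus passed in both phases with opposite signs.

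On HFD, Acaca was higher under timed feeding. Its median was 69.4 CPM (60.8 to 85.9) ad libitum, 75.0 (60.3 to 87.1) under dark feeding (log2FC 0.11, SE 0.03, adjusted p = 0.0302) and 75.1 (56.9 to 86.3) under light feeding (0.10, SE 0.03, adjusted p = 0.0442). Fads1 fell from 54.8 (35.4 to 81.6) to 49.4 CPM (38.25 to 61.4) under dark feeding (log2FC -0.15, SE 0.04, adjusted p = 0.0193). These were 1 of 9 higher and 1 lower under dark feeding (1.72% and 2.97% of all genes) and 1 higher and 0 lower under light feeding (5.65% and 4.94% of all). Light against dark feeding gave 0 of 9 by edgeR (0.0486% of all higher, 0.0347% lower), 2 under an unadjusted p of 0.05 and 0 by DESeq2. Of the 14 astrocyte markers 6 fell under dark feeding and 4 under light feeding on HFD, and all 3 of these calls were lost with marker scores in the model (adjusted p from 0.687 to 0.873). They were also lost with summed neighbouring titles (adjusted p from 0.662 to 0.86) and with a spline on title number, where Acaca stood at 0.03 under dark feeding (adjusted p = 0.815) and 0.00104 under light feeding (0.998) and Fads1 at -0.115 (0.375). On FPKM Acaca was lost too, at 0.09 under each schedule (adjusted p = 0.0752 and 0.0692). Title numbers of 46 or less belonged to 28 of 34 libraries of HFD ad libitum and to 0 of HFD dark- or light-feeding.

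A test of whether the diet difference depended on the schedule passed for Fads1 among the 9. The interaction of diet with light against ad libitum feeding was -0.22 for Fads1 (adjusted p = 0.031; 1 of 9, and 9.58% of all genes passed). With dark feeding 0 of 9 passed by edgeR and 0 by DESeq2, 3 had an unadjusted p under 0.05, and 0.862% of all genes passed. With marker scores in the model the Fads1 interaction was 0.02 (adjusted p = 0.927), and 11 of 14 astrocyte markers had a lower interaction in the same test. It was also lost without ZT2, ZT10 or ZT22 (adjusted p = 0.242, 0.21 and 0.156), in the dark-phase libraries alone (0.748) and with summed neighbouring titles (0.717).

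Rhythms over the day were tested as a wave of 24 h period. Fitted over all 6 groups together, Srebf1 and Acly had the firmest rhythms of the set. The shared wave of Srebf1 peaked in the light phase and that of Acly in the early dark phase. Srebf1 changed by 0.33 (log2) from peak to trough with a peak at ZT6.2 (adjusted p = 1.31e-06), and Acly by 0.25 with a peak at ZT15.3 (adjusted p = 2.99e-10). Fasn (0.13, peak ZT10.4, adjusted p = 0.000428), Fads1 (0.17, ZT7.9, adjusted p = 0.00185) and Fads2 (0.25, ZT9.1, adjusted p = 0.00836) also passed, 5 of 9, where 41% of all genes passed. The rhythms of Srebf1 and Acly passed under each of 15 alternatives, the highest adjusted p being 0.0088 and 0.000487. With marker scores in the model they were 0.28 and 0.20. A shared wave does not give the peak of each group. The fitted Srebf1 peak on chow lay at ZT6.3 under dark feeding and at ZT18.3 under light feeding, where its rhythm did not pass.

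Srebf1 had the largest peak-to-trough change of any member in any group in HFD dark-feeding. In HFD dark-feeding its mean was 217 ± 45.9 CPM (SD, n = 6) at ZT2, 230.0 ± 31.1 (n = 5) at ZT6 and 224 ± 27.8 (n = 6) at ZT10. It then stood at 158 ± 17.4 (n = 5) at ZT14, 149 ± 23.9 (n = 5) at ZT18 and 144 ± 36.3 (n = 6) at ZT22. All 6 libraries at ZT10, which ran from 204 to 278 CPM, lay above every library at ZT14 and ZT18 (highest 179 and 183). The peak-to-trough change was 0.81 with a peak at ZT6.5 (adjusted p = 2.85e-05). In HFD ad libitum it was 0.58 with a peak at ZT5.4 (adjusted p = 2.1e-05), and in chow dark-feeding 0.58 at ZT6.3 (adjusted p = 0.00211), where means ran from 205 ± 31.0 at ZT10 to 135 ± 25.9 at ZT18 (n = 6 each).

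Acly passed in 4 groups: chow ad libitum (0.42, peak ZT15.6, adjusted p = 0.0129), HFD ad libitum (0.40, ZT13.3, adjusted p = 0.000242), chow dark-feeding (0.30, ZT14.2, adjusted p = 0.00392) and HFD dark-feeding (0.22, ZT12.9, adjusted p = 0.0164). In chow dark-feeding its mean was 118 ± 2.99 CPM at ZT14 (n = 5) and 88.9 ± 7.18 at ZT2 (n = 5), and the lowest library at ZT14 (114) lay above the highest at ZT2 (97.1). In HFD ad libitum it was 115 ± 5.89 at ZT14 against 83.5 ± 7.97 at ZT2 (n = 6 each), again without overlap.

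Fasn passed in chow dark-feeding (0.28, peak ZT7.8, adjusted p = 0.00271), HFD dark-feeding (0.35, ZT10.1, adjusted p = 0.000243) and chow light-feeding (0.26, ZT16.1, adjusted p = 0.0167). In chow dark-feeding all 6 libraries at ZT10 (329 to 361 CPM) lay above all at ZT14 (244 to 313). Scd and Scd2 passed in chow dark-feeding with peaks at ZT8 and ZT8.9 (0.41 and 0.30, adjusted p = 0.0247 for both), and Scd2 also in chow light-feeding (0.42, ZT20, adjusted p = 0.00566). Acaca (0.35, ZT17.9, adjusted p = 0.00443), Elovl5 (0.40, ZT19.2, adjusted p = 0.0171) and Fads1 (0.37, ZT5.9, adjusted p = 0.0226) passed in chow light-feeding and in no other single group.

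In all, 1 of 9 genes passed in chow ad libitum (4.48% of all genes), 5 in chow dark-feeding (22.6%), 5 in chow light-feeding (20.2%), 2 in HFD ad libitum (19.5%) and 3 in HFD dark-feeding (27.3%). In HFD light-feeding 0 of 9 passed by edgeR and 0 by DESeq2, 1 had an unadjusted p under 0.05, and 0.868% of all genes passed. There Srebf1 had means of 167 ± 19.2 CPM at ZT2 (n = 5), 217 ± 50.0 at ZT6 (n = 6), 160 ± 23.4 at ZT18 (n = 5) and 223 ± 44.4 at ZT22 (n = 6), with no single peak. Marker lists also passed the rhythm test, with 6 of 12 oligodendrocyte markers in chow dark-feeding, 10 in chow light-feeding, 3 in HFD ad libitum, 6 in HFD dark-feeding and 0 in HFD light-feeding. With marker scores in the model 0 of 9 genes passed in either timed chow group (all adjusted p at least 0.662), while Srebf1 (adjusted p = 2.12e-05) and Acly (adjusted p = 0.00206) in HFD ad libitum and Fasn (adjusted p = 0.000449) and Acly (adjusted p = 0.00155) in HFD dark-feeding still did. Srebf1 in HFD dark-feeding (adjusted p = 0.0774) and Acly in chow ad libitum (0.0721) were lost in that model, while Srebf1 in chow ad libitum (0.40, adjusted p = 0.00353) and Fads1 in HFD ad libitum (0.22, adjusted p = 0.00558) newly passed. With summed neighbouring titles 1 rhythm within a group passed, that of Srebf1 in HFD dark-feeding (adjusted p = 0.0472).

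A spline on title number ended most of the calls in the timed groups. It also ended the Acly call in HFD ad libitum (0.44, adjusted p = 0.0566). Srebf1 in HFD ad libitum (0.56, adjusted p = 0.0064) and Acly in chow ad libitum (0.31, adjusted p = 0.0492) still passed. In chow light-feeding all 5 were lost (adjusted p from 0.771 to 0.976). Acaca stood at 0.18, Elovl5 at 0.16, Scd2 at 0.11, Fasn at 0.21 and Fads1 at 0.39. In HFD dark-feeding Fasn (0.21, adjusted p = 0.322), Acly (0.28, adjusted p = 0.313) and Srebf1 (0.56, adjusted p = 0.27) were lost. In chow dark-feeding Scd2 alone passed (0.41, adjusted p = 0.0446). The calls lost there stood at 0.70 for Scd, 0.31 for Fasn, 0.43 for Acly and 0.61 for Srebf1.

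**Figure D3:**
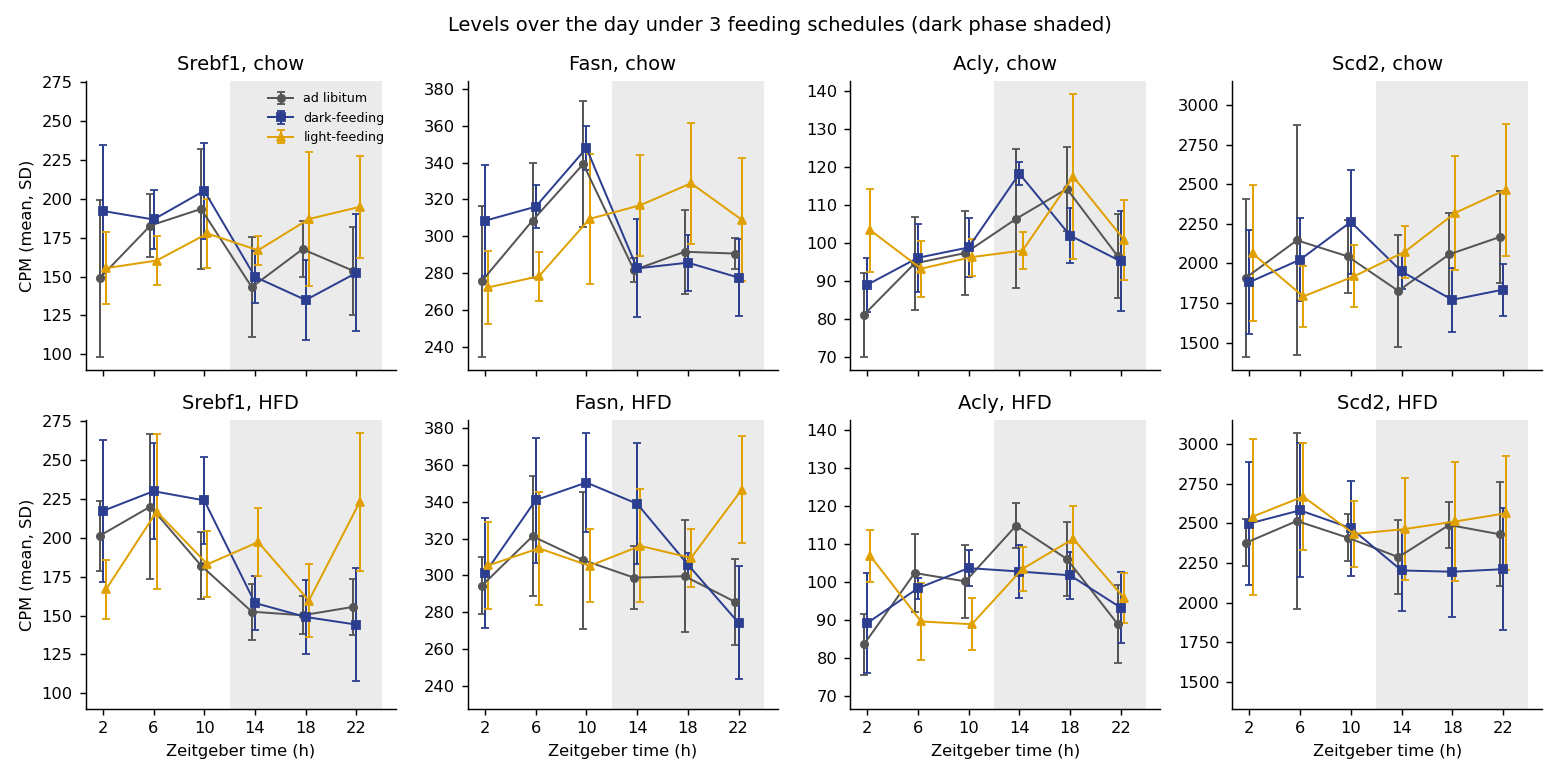
Mean CPM with SD (vertical axis, not from 0) of Srebf1, Fasn, Acly and Scd2 at 6 Zeitgeber times (horizontal axis, hours; dark phase shaded) under 3 schedules on chow (top) and HFD (bottom), 5 to 7 libraries per point. In HFD dark-feeding Srebf1 is high from ZT2 to ZT10 and low from ZT14 to ZT22, and in chow the light-feeding line of Scd2 is highest at ZT22 where the dark-feeding line is low.

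Light against dark feeding asked whether the time of food moved these rhythms. On chow 8 of 9 genes had a different rhythm, Fads1 being the exception (adjusted p = 0.088), where 36.9% of all genes passed. Srebf1 had the largest difference between the waves (0.80 from peak to trough, adjusted p = 0.000488), followed by Scd (0.76, adjusted p = 0.00238), Fads2 (0.74, adjusted p = 0.0367), Scd2 (0.71, adjusted p = 9.27e-05), Acaca (0.59, adjusted p = 0.000271) and Elovl5 (0.53, adjusted p = 0.00691). Fasn (0.47, adjusted p = 0.000145) and Acly (0.34, adjusted p = 0.0296) passed too.

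Fitted peaks on chow lay in the light phase under dark feeding and in the dark phase under light feeding for Srebf1 (ZT6.3 and ZT18.3), Scd (ZT8 and ZT17.8), Scd2 (ZT8.9 and ZT20), Fasn (ZT7.8 and ZT16.1), Acaca (ZT7.2 and ZT17.9) and Elovl5 (ZT10.7 and ZT19.2). In 6 of 9 genes the peaks were at least 8 h apart (median 8.5 h, range 5 to 12). The share of all genes with peaks that far apart was not counted on chow or on HFD. Whether such distances are particular to these genes is therefore not known. The peaks of Fads1 and Fads2 lay at ZT11.7 and ZT12.5 under dark feeding and at ZT5.9 and ZT5.1 under light feeding. Where a rhythm did not pass, its fitted peak is poorly placed, which holds under one or both schedules for every gene but Fasn and Scd2. Scd2 in chow had a mean of 2262 ± 328 CPM at ZT10 under dark feeding and 1919 ± 194 under light feeding (n = 6 each). At ZT22 the order was turned, with 1835 ± 163 (n = 5) under dark and 2466 ± 416 (n = 6) under light feeding, and the lowest light-feeding library (2056) lay above the highest dark-feeding one (2050).

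On HFD 3 of 9 genes had a different rhythm under light than under dark feeding: Srebf1 (0.72, adjusted p = 0.00977), Fasn (0.46, adjusted p = 0.000619) and Acly (0.35, adjusted p = 0.0132), where 21.9% of all genes passed. Fasn at ZT22 ran from 243 to 319 CPM under dark feeding and from 317 to 378 under light feeding (n = 6 each), and only the extremes overlapped. Fitted peaks were a median of 4.1 h apart (0.4 to 11.4), and 2 of 9 genes reached 8 h. In HFD light-feeding 0 of 9 rhythms passed by edgeR, so the fitted peaks there are poorly placed. These distances were not tested and cannot be set against those on chow.

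**Figure D4:**
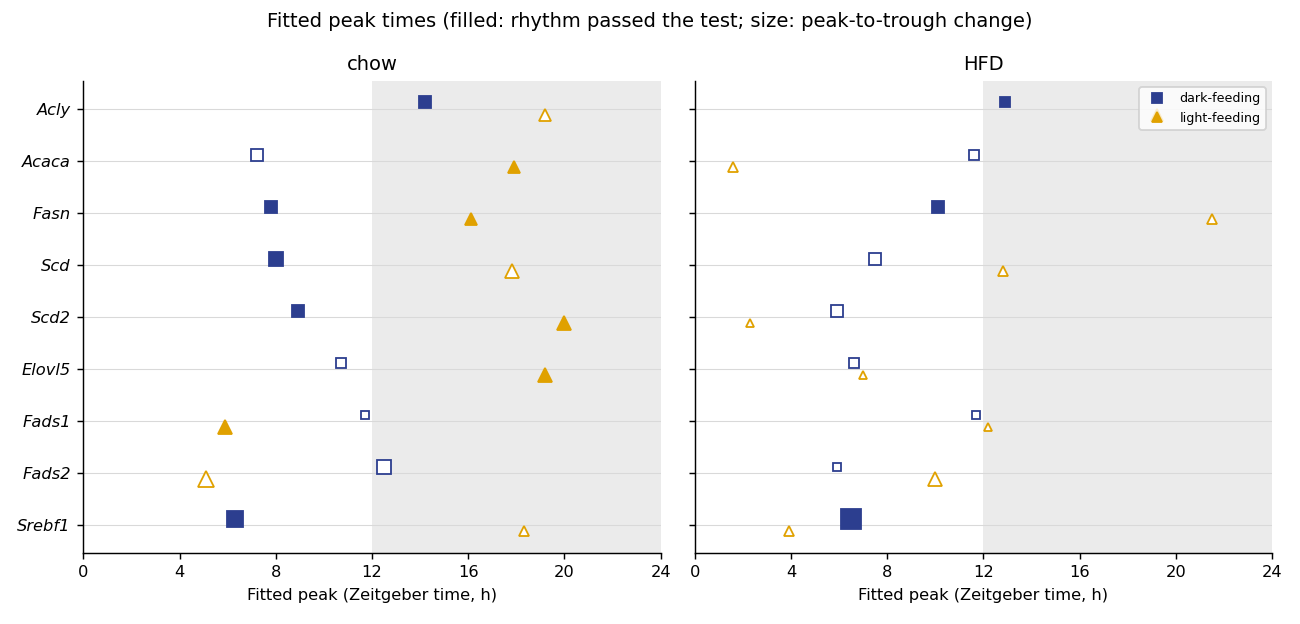
Fitted peak time (horizontal axis, Zeitgeber hours; dark phase shaded) of each gene under dark feeding (squares) and light feeding (triangles), on chow (left) and HFD (right); filled symbols passed the 24 h test and larger symbols have a larger peak-to-trough change. On chow 6 genes have their square in the light phase and their triangle in the dark phase, at least 8 h away.

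A comparison added after the data were seen moved the light-feeding times by 12 h, so that both schedules were aligned to food rather than to light. On chow 1 of 9 genes then still differed, Acly (0.44, adjusted p = 0.0112; 9.3% of all genes), and on HFD 2 did, Srebf1 (0.90, adjusted p = 0.00172) and Acly (0.32, adjusted p = 0.0405; 11.9% of all). The other 8 genes on chow had differences of 0.14 to 0.50 with adjusted p of at least 0.121. Over all 9 genes the median difference on chow was 0.329 aligned to food and 0.594 aligned to light. For all genes tested these medians were 0.261 and 0.369. On HFD the 9 genes had medians of 0.316 and 0.315, and all genes 0.243 and 0.289. With marker scores the Acly difference aligned to food was lost on chow (adjusted p = 0.0701) and passed on HFD (0.000809), and with summed neighbouring titles it was lost on both (0.494 and 0.314). On chow the Acly difference aligned to light was lost with marker scores (adjusted p = 0.835), a spline on title number (0.084) and summed neighbouring titles (0.369), and without the 3 libraries that stood apart (0.0648). Markers moved too, with 11 of 12 oligodendrocyte and 17 of 20 microglia markers differing on chow when aligned to light, and 2 and 1 when aligned to food.

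Limits of the schedule result on chow were these. With marker scores in the model 0 of 9 genes passed by edgeR (adjusted p from 0.293 to 0.998), and with summed neighbouring titles 1 did, Acaca (adjusted p = 0.0486), the others lying between 0.0546 and 0.369. The fitted differences were no smaller there for Scd (0.87), Scd2 (0.75) and Srebf1 (1.03), on fewer samples. Fads2 was lost as well on FPKM (adjusted p = 0.0612) and without the 3 libraries that stood apart (0.0973). With a spline on title number 4 passed on chow (Scd, Scd2, Fasn and Srebf1, adjusted p from 0.00191 to 0.0411) and 0 on HFD (adjusted p from 0.586 to 0.991). On HFD all 3 genes passed with marker scores (Fasn 0.33, adjusted p = 0.00379; Srebf1 0.51, adjusted p = 0.0134; Acly 0.26, adjusted p = 0.0486) and 0 with summed neighbouring titles (adjusted p from 0.145 to 0.229).

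Rhythms were also compared between diets. Under light feeding Acaca (0.41, adjusted p = 0.018) and Elovl5 (0.50, adjusted p = 0.0221) had different rhythms on HFD and chow (2 of 9, and 9.02% of all genes). In chow light-feeding Acaca rose from 53.7 ± 4.21 CPM at ZT6 (n = 5) to 71.6 ± 4.67 at ZT22 (n = 6), while in HFD light-feeding it was 77.9 ± 3.98 and 79.2 ± 6.42 (n = 6 each). Under ad libitum and dark feeding 0 of 9 passed by edgeR and 0 by DESeq2, with 1 and 0 under an unadjusted p of 0.05, and 0% of all genes passed in either. Both calls were lost with marker scores (adjusted p = 0.694 and 0.838) and without ZT6.

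Of 55 other lipid synthesis genes, 22 had a different rhythm under light and dark feeding on chow (40%, and 36.9% of all genes) and 12 on HFD (21.8%, and 21.9% of all), so that their share was near that of all genes. Aligned to food, 3 and 8 differed, where 9.3% and 11.9% of all genes did. On chow they were led by Acsl3 (0.53, adjusted p = 1.08e-05), Acss2, an acetyl-CoA synthetase (0.42, adjusted p = 1.51e-05), Insig1, which holds SREBP back in the endoplasmic reticulum (0.63, adjusted p = 0.000104), and Dgat2, the last enzyme of triglyceride synthesis (0.63, adjusted p = 0.000109). Of the 6 genes listed for SREBP processing 5 passed on chow and 3 on HFD, beside the same 36.9% and 21.9% of all genes. Srebf2, which encodes the paralogue that drives cholesterol synthesis, had a rhythm in chow dark-feeding (0.33, peak ZT6.7, adjusted p = 0.000777) and HFD dark-feeding (0.33, ZT8.7, adjusted p = 0.00011), near the Srebf1 peaks of ZT6.3 and ZT6.5.

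Across the 200 libraries, after the mean of each group and time was removed, several of the genes varied together. The correlations describe libraries that share RNA composition and depth. Scd and Scd2 (Pearson r = 0.727), Scd2 and Elovl5 (0.764), Scd2 and Srebf1 (0.645), Fasn and Srebf1 (0.644) and Fads1 and Fads2 (0.665) were the highest pairs. The lowest were Acaca with Fads2 (-0.353) and with Fads1 (-0.324). Reads may have been divided between Scd and Scd2, so the correlation of these paralogues is uncertain to that extent.

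Markers of different glia correlated with different genes. The oligodendrocyte score, the mean log2 CPM of its markers, correlated with Scd2 at 0.849, with Elovl5 and Srebf1 at 0.778 each, with Acly at 0.66 and with Scd at 0.59. The astrocyte score correlated with Fads2 at 0.831 and with Fads1 at 0.709, but with Elovl5 at -0.01 and with Fasn at -0.08. Fads2 also correlated with the endothelial (0.662), meningeal fibroblast (0.619) and mural (0.433) scores. Fads1 did so with the endothelial (0.469), meningeal fibroblast (0.44) and mural (0.286) scores. The microglia score reached at most 0.541, with Srebf1. The neuron score was negative for 7 of the 9 genes, down to -0.705 for Srebf1, and positive for Fads1 (0.367) and Fads2 (0.145).

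**Figure D5:**
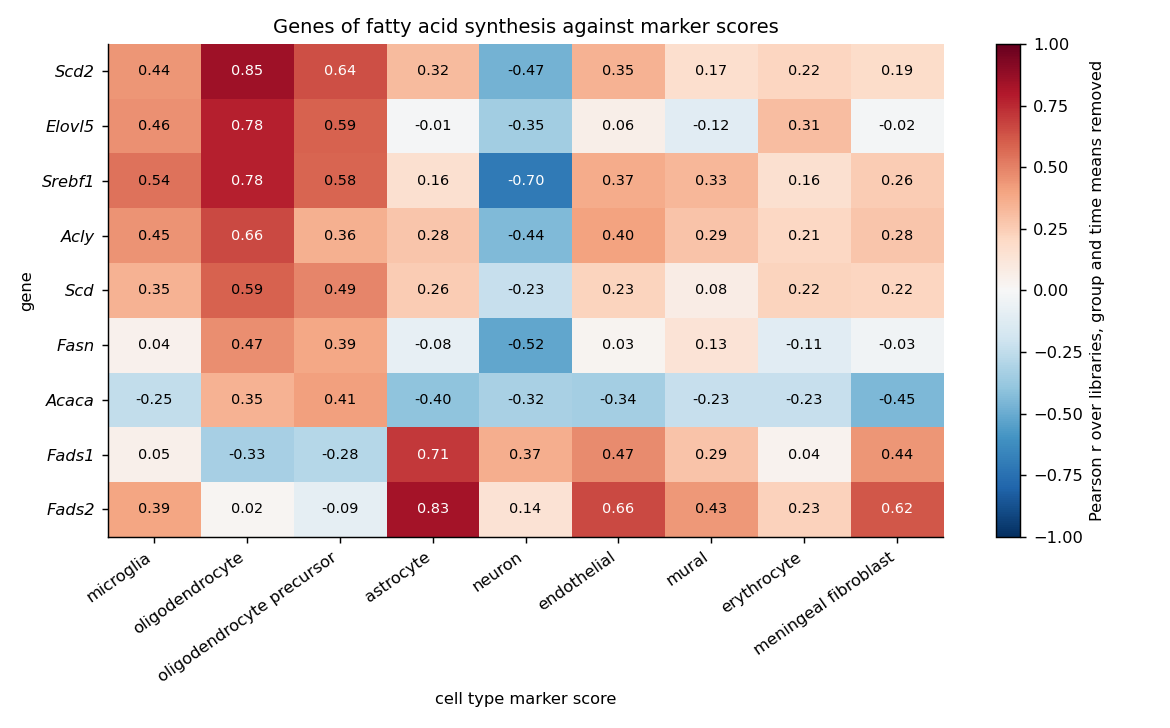
Pearson correlation (colour and number) of each gene (rows) with the marker score of each cell type list (columns) over 200 libraries, group and time means removed. Scd2, Elovl5 and Srebf1 are highest with oligodendrocyte markers (0.78 to 0.85) and Fads1 and Fads2 with astrocyte markers (0.71 and 0.83).

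Genes most like each member were found by the same measure. Among those most like Elovl5 were Rnf13 (r = 0.873) and Ugt8, the enzyme of myelin galactolipids (0.862), which belongs to the oligodendrocyte list. Scd2 was closest to Kcnj10, a glial potassium channel, and Lpar1, a lysophosphatidic acid receptor (0.858 each), and to Dennd5a (0.847). Srebf1 was closest to Septin4 (0.912; the table lists its symbol as a date, and the name is RefSeq's for that gene ID), Ddr1 (0.911) and Wscd1 (0.901). Among those most like Fads2 were Mlc1 (0.81) and S100b (0.794), of which S100b is in the astrocyte list. Fads1 was closest to Ttyh1 (0.812), Ndrg2 (0.79) and Sparcl1 (0.772). Fasn was closest to Zbtb47 (0.74) and Abca2, a lipid transporter (0.734), Acaca to Kif1b (0.765) and Acly to Csrp1 (0.742). Scd was closest to Scd2 (0.727), with the same limit on divided reads.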

How the data were processed

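The authors deposited 1 table of expected counts (estimated counts per gene, of which 8.03% of entries are not whole) and 1 of FPKM, with 1 column per library. The build was Rnor 6.0, per the submitters' processing notes. For the aligner and counter: not given in the sources used here. Counts were rounded and tested with edgeR 4.0.16 in R 4.3.3 (quasi-likelihood F test, trimmed-mean scaling, filterByExpr) with Benjamini-Hochberg adjustment over all 14393 genes at 0.05. The planned design foresaw whole counts. Diet and schedule fits held Zeitgeber time as a factor, and rhythms were a 24 h cosine and sine. Alternatives used DESeq2 1.42.0, limma 3.58.1 on log2(FPKM + 0.1) or + 1 for deposited FPKM values (mean of at least 0.5), marker scores, depth of at least 5 M, and libraries or times left out. Runs of titles up to 5 apart (79 runs), 3 outlying libraries left out and alignment to food were added after seeing the data. A spline on title number was planned for the schedule comparisons, and leaving out a time for diet, schedule and interaction; for rhythms both were added after seeing the data. The members and gene lists were chosen with earlier results of these data known. All 9 genes are named in each comparison, and up to 4 other pathway genes by smallest adjusted p. Genes most like a member are the 3 with the highest correlation, of which some are not reported here. The scripts were tested on simulated data. Of 19900 pairs of libraries 0 were identical, the lowest chi-square per degree of freedom being 2.25.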

Additional observations from a re-analysis of the deposited data

Results flagged for a closer look

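Of 324 sets, each of 1 gene in 1 group at 1 time, 17 held 1 library far from the others, and chance alone flags about 1 in 20. The flags are not independent, because 1 library can be flagged for several genes. The count therefore cannot be judged against that rate. The library with title number 109, of chow ad libitum at ZT6, was highest for Scd (22.8 CPM, others 11.6 to 14.3), Scd2 (3430, others 1730 to 1970) and Fads1 (124, others 46.2 to 68.5). The library with title number 48 of HFD dark-feeding at ZT2 was highest for Scd (24.4, others 14.5 to 18.2), Fasn (356, others 271 to 302) and Srebf1 (307, others 180 to 219). Further high libraries were for Scd in HFD ad libitum at ZT14 (26.5, others 16.3 to 20.1), Acaca in chow ad libitum at ZT10 (83, others 69.5 to 73.1), Fads1 in chow dark-feeding at ZT22 (77.5, others 51.5 to 58.2) and in HFD dark-feeding at ZT10 (61.4, others 43.8 to 48.3). The same held for Fads2 in HFD dark-feeding at ZT14 (13.9, others 6.94 to 8.55) and for Srebf1 in chow light-feeding at ZT22 (258, others 167 to 201) and HFD dark-feeding at ZT10 (278, others 204 to 228). Low libraries were for Scd2 in chow light-feeding at ZT10 (1530, others 1930 to 2050), Fasn in chow light-feeding at ZT18 (266, others 329 to 355), Acaca in HFD dark-feeding at ZT6 (62.5, others 80.3 to 87.1) and Fads1 in HFD light-feeding at ZT2 (39.3, others 48.6 to 51.4).

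Effects that differed between groups by a test of the difference were the Fads1 interaction of diet with light feeding (-0.223) and the rhythms between diets under light feeding of Acaca (0.411) and Elovl5 (0.501). Between light and dark feeding on chow, rhythms differed by 0.758 for Scd, 0.713 for Scd2, 0.471 for Fasn, 0.594 for Acaca, 0.336 for Acly, 0.531 for Elovl5, 0.735 for Fads2 and 0.802 for Srebf1 (log2, peak to trough). On HFD the differences were 0.463 for Fasn, 0.348 for Acly and 0.715 for Srebf1. Aligned to food they were 0.44 for Acly on chow, and 0.316 for Acly and 0.904 for Srebf1 on HFD.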

How the results depend on the processing

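No paired analysis was possible because the labels give no replicate number shared between groups. Counts below are of the 9 genes that passed, and the cause of each change was not tested. The share of all genes that passed is not given beside these counts. They therefore do not show whether the 9 genes stood out from all genes in a fit. With marker scores the count was 0 for diet under dark feeding, for dark and for light against ad libitum feeding on HFD, for the diet by light-feeding interaction, for the rhythms of chow dark-feeding and chow light-feeding, and for the rhythm differences by diet under light feeding, between light and dark feeding on chow, and aligned to food on chow. It was 2 for diet under light feeding and 4 for the rhythm difference aligned to food on HFD. Some estimates changed sign with marker scores, and none of them passed by edgeR. These were Fads2 in the diet comparison under dark feeding (0.0301, adjusted p = 0.948) and Fads1 under light feeding (0.0432, adjusted p = 0.642). Fads1 in the diet by light-feeding interaction was another (0.0213, adjusted p = 0.927). The fitted wave turned for Scd2 in chow dark-feeding (0.0844), Elovl5 in chow light-feeding (0.0601), and Scd2 (0.0176) and Elovl5 (0.238) in the rhythm difference between light and dark feeding on chow.

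With summed neighbouring titles, which leaves fewer samples, the count was 0 for diet ad libitum, both HFD schedule comparisons with ad libitum feeding, the diet by light-feeding interaction, the rhythms of chow ad libitum, chow dark-feeding, chow light-feeding and HFD ad libitum, the rhythm difference by diet under light feeding, that between light and dark feeding on HFD, and both aligned to food. It was 1 for the rhythm of HFD dark-feeding and the light against dark rhythm difference on chow, and 2 for the rhythm over all groups. With a spline on title number the count was 1 for dark against ad libitum feeding on HFD (Fasn, adjusted p = 0.0215, while the Acaca and Fads1 calls were lost) and 0 for light, 1 for the chow dark-feeding rhythm, 0 for chow light-feeding and HFD dark-feeding, 0 for the rhythm difference by diet under light feeding, and 4 on chow and 0 on HFD for light against dark feeding.

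In the light phase alone the count was 0 for diet ad libitum, 2 for light against ad libitum feeding and 4 for light against dark feeding on chow, 1 for dark against ad libitum and 1 for light against dark feeding on HFD, and 4 for the diet by light-feeding interaction. In the dark phase alone it was 1 for diet under light feeding, 5 for light against dark feeding on chow, 1 for dark against ad libitum, 2 for light against ad libitum and 2 for light against dark feeding on HFD, and 0 for the diet by light-feeding interaction. On FPKM the count was 1 for dark against ad libitum feeding on HFD, also with a pseudocount of 1 (1) and no filter (1), and 0 for light against ad libitum feeding in all 3. It was 2 for the diet by light-feeding interaction (2 with a pseudocount of 1) and 1 for the rhythm difference by diet under light feeding. With all groups in the fit it was 1 for light against ad libitum feeding on chow and 0 for dark and 0 for light against ad libitum feeding on HFD. With time as a factor the HFD light-feeding rhythm had 2.

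Leaving out a time gave, for light against ad libitum feeding on chow, 1 without ZT14 and 1 without ZT18. For dark against ad libitum feeding on HFD it gave 1 without ZT2, ZT10, ZT14 or ZT18 and 0 without ZT6 or ZT22, and for light against ad libitum 0 without ZT6, ZT10 or ZT22. The diet by dark-feeding interaction had 1 without ZT6 and 2 without ZT18, and that with light feeding 0 without ZT2, ZT10 or ZT22 and 3 without ZT14 or ZT18. Rhythms had 0 in chow ad libitum without ZT2 or ZT18, 2 in chow dark-feeding without ZT10, 0 without ZT6 and 3 without ZT10 in chow light-feeding, and 1 in HFD light-feeding without ZT2 or ZT22. The rhythm difference by diet under light feeding had 0 without ZT6 and 1 without ZT10, ZT14 or ZT22, and that between light and dark feeding on chow 4 without ZT6. Depth ran from 3.78 to 11.6 M counts, and leaving out the 5 libraries under 5 M moved no count by over 1.5 times.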
